A study of Mus musculus with 14 samples.

Results

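Mouse embryonic fibroblasts labelled as Tip60 knock-out (KO) were compared between day 5 and day 3 of the treatment meant to delete the gene. The comparison takes the 7 libraries that the labels give as Tip60 knock-out, 3 at day 3 and 4 at day 5, of the 14 libraries in the series. It asks how the transcriptome of these fibroblasts moved over these days in culture, gene by gene. The other 7 libraries, controls with 3 at day 3 and 4 at day 5, were used for the spread between libraries and for one further question, whether the change over days differed between the genotypes.

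The fibroblasts were isolated from E13.5 embryos and grown in DMEM with 10% serum and 2 mM GlutaMAX, at 5% CO2 and 3% O2, and the labels give 250 nM 4-OHT (4-hydroxytamoxifen, which switches on tamoxifen-dependent Cre recombinases) as the deletion treatment. KO libraries carry the genotype Tip60-/- and control libraries Tip60+/+. The labels attach the same treatment text to both genotypes and name neither the Cre driver nor the deleted exons. KO replicates 2, 3 and 4 come from the embryos 136-e2-II (female), 153-e3 and 153-e5 (both male), each sampled on both days, while replicate 1, from embryo 159-e1 (male), has a day 5 library only. Controls come from litters 218 and 219, female except for day 5 replicate 4, and day 3 replicates 1 and 2 share embryo 218-e1, so genotype and litter cannot be told apart.

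Stranded mRNA libraries were sequenced in 80 bp paired reads. KO libraries held 2187168 to 39203154 counts, and the lowest total, day 3 replicate 3, stood apart on the first principal component of the KO libraries, at -61.7 against -17.8 and -8.2 for the other day 3 libraries and 15.9 to 28.4 for day 5. Of the 14327 tested genes, 13992 had at least 1 count in that library. Levels are given as CPM (counts per 1000000 counts, scaled by TMM) and not per length, so they compare libraries and not genes. All changes are log2 fold changes of day 5 over day 3 ± standard error from edgeR's quasi-likelihood test, and a gene is said to have risen or fallen where the Benjamini-Hochberg adjusted p over all tested genes was under 0.05.

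Tip60, encoded by Kat5, is a lysine acetyltransferase that works in a large chromatin complex together with a remodelling enzyme that puts H2A.Z into nucleosomes, and it has roles in transcription, cell proliferation and DNA repair. Cultured fibroblasts change with time after plating: cell density, the use of nutrients in the medium and the supply of oxygen all shift over days. Several transcription factors read such conditions. HIF drives glycolysis and angiogenic factors when oxygen is short, ATF4 drives amino acid synthesis and import when the integrated stress response is on, SREBP2 drives sterol synthesis when membrane cholesterol is low, and MondoA drives Txnip when glucose phosphates accumulate.

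The targeted gene did not differ detectably between the days. Kat5 (identifier 81601, chromosome 19, 5603014 to 5611556 in mm10) stood at 21.1, 20.2 and 18.3 CPM at day 3 and 17.3, 17.8, 19.9 and 18.7 CPM at day 5, a change of -0.11 ± 0.08 with an edgeR adjusted p of 0.42. Control libraries averaged 30.9 CPM at day 5 and 31.9 CPM at day 3, so Kat5 counts were lower in KO cells but not absent. Reads from exons outside a deleted segment are still counted, and the labels do not give that segment, so the deletion could not be checked from these counts. Among 18 measured subunits of the Tip60 complex, Brd8, a bromodomain subunit, rose by 0.48 and Trrap, its large scaffold, changed by -0.34 (edgeR adjusted p = 0.00776 and 0.00736). In all, 2 subunits rose (Brd8 and Meaf6) and 3 fell (Trrap, Epc2 and Ep400), or 1 and 1 without day 5 replicate 4, beside a share of 12% of all tested genes called in either direction.

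Of the 14327 genes tested, 713 rose (4.98%) and 1012 fell (7.06%) from day 3 to day 5 in KO cells. The median change over all tested genes was 0.01. Changes were mostly small: 94 genes rose and 221 fell by more than 2-fold. Of the 1725 called genes 1701 moved in the direction of the call in all 3 embryos sampled on both days. These pairs are among the libraries that made the calls, so this count is no separate support. For 3849 genes (26.9%) no day 3 library overlapped any day 5 library, and 1654 of these were called. The counts differed with the library left out. Without day 3 replicate 2 the genes called higher numbered 703, without day 3 replicate 4 they numbered 300, without day 3 replicate 3 they numbered 470, and without day 5 replicate 3 or 4 they numbered 396 or 390. Leaving out the control library day 5 replicate 4, which enters through the shared estimate of spread, the gene filter and the scaling, gave 1137.

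**Figure D1:**
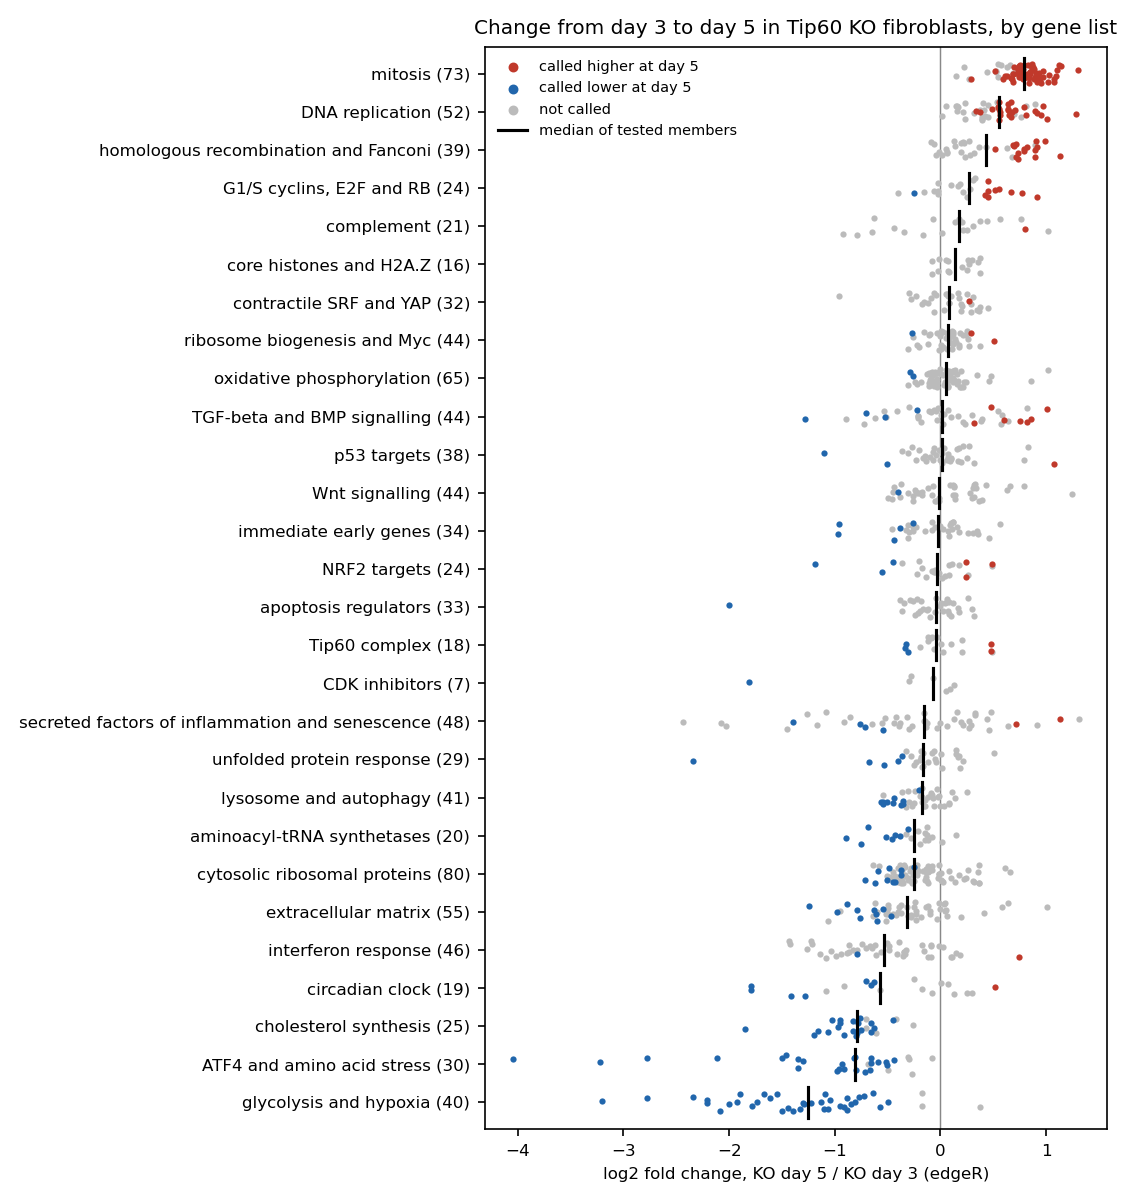
Each point is a tested gene of 1 of 28 pathway lists, with its log2 fold change of day 5 over day 3 in KO cells on the x axis; red and blue mark genes called higher or lower at an adjusted p under 0.05, grey marks the rest, and black bars are list medians with the number of tested members in parentheses. Glycolysis and hypoxia, ATF4 and cholesterol genes lie on the left with medians of -1.26, -0.80 and -0.79, and mitosis genes on the right with a median of 0.79.

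The gene with the largest rise was Txnip, which encodes an arrestin that binds thioredoxin and removes glucose transporters from the cell surface. Txnip was measured at 5.38, 5.17 and 7.55 CPM at day 3 and 95.8, 105, 138 and 131 CPM at day 5. The fitted change was 4.26 ± 0.58 (edgeR adjusted p = 0.00073), equal to 19.2-fold. In controls the change was 2.91, and the difference between the genotypes did not pass the test (difference 1.35 ± 0.93, edgeR adjusted p = 0.371).

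The other 11 genes with the largest rises, among called genes of at least 2 CPM whose days did not overlap, were mostly expressed at a few CPM. Clca3a2, a member of the calcium-activated chloride channel regulator family, stood at 2.11, 2.35 and 2.01 CPM at day 3 and 9.58, 6.96, 8.89 and 10.3 CPM at day 5, a rise of 2.08. Cma2, a mast cell chymase gene, stood at 0.211, 0.47 and 0.503 CPM at day 3 and 2.38, 1.92, 2.08 and 1.82 CPM at day 5. Rxfp1, the relaxin receptor, stood at 0.791, 0.939 and 0.604 CPM at day 3 and 2.41, 2.13, 1.98 and 1.63 CPM at day 5, and Lhfpl4, a tetraspan-like membrane protein, at 0.95, 0.47 and 1.41 CPM at day 3 and 3.78, 2.63, 3.1 and 3.82 CPM at day 5. These rises were between 1.45 and 2.71. Atoh8, a bHLH transcription factor, was the most abundant of the rest, at 22.8, 18.8 and 29 CPM at day 3 and 53.5, 57.8, 63.6 and 68.8 CPM at day 5. The remaining names were Tnfsf18 (1.86), Arhgef26 (1.42), Gzme (1.38), Fbxo48 (1.36), Depdc1a (1.33) and Cyp46a1 (1.31). Among these 6 genes and Atoh8, the calls of Tnfsf18, Arhgef26, Fbxo48, Depdc1a, Atoh8 and Cyp46a1 ended without day 3 replicate 4. Those of Tnfsf18, Atoh8 and Gzme ended without day 3 replicate 2, and those of Arhgef26, Gzme, Atoh8 and Cyp46a1 without day 3 replicate 3. Without day 5 replicate 1 Arhgef26 and Gzme were lost, without replicate 2 Gzme, without replicate 3 Gzme, Fbxo48, Atoh8 and Cyp46a1, and without replicate 4 Gzme, Atoh8 and Cyp46a1. The highest adjusted p (edgeR) in these fits was 0.249, for Gzme, and the other 6 reached at most 0.106.

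Larger changes were found among genes that fell. Gipr, the receptor for the incretin GIP, stood at 2.72, 6.11 and 4.03 CPM at day 3 and 0.105, 0.284, 0.152 and 0.125 CPM at day 5, a change of -4.55 ± 0.71 (edgeR adjusted p = 0.000963). Kbtbd11, a BTB and kelch domain protein, stood at 25.2, 20.2 and 21.2 CPM at day 3 and 1.57, 0.994, 0.66 and 1.06 CPM at day 5. Its change was -4.34 ± 0.40 (edgeR adjusted p = 2.54e-05). Adm2, a peptide hormone of the adrenomedullin family, stood at 10.7, 9.86 and 12.9 CPM at day 3 and 0.665, 0.781, 0.863 and 1.19 CPM at day 5, a change of -3.71. Stc2, the secreted glycoprotein stanniocalcin 2, was among the more abundant of these genes, at 52.9, 44.1 and 44.4 CPM at day 3 and 5.11, 6.75, 4.93 and 3.76 CPM at day 5, a change of -3.22 ± 0.38 (edgeR adjusted p = 0.000306). Car9, a surface carbonic anhydrase and a standard HIF target, stood at 17.3, 39 and 58.7 CPM at day 3 and 2.9, 4.12, 4.21 and 5.26 CPM at day 5, a change of -3.21. The day 3 libraries of Car9 spread widely, with replicate 2 lowest. Genes named here as the largest falls were chosen among those whose days did not overlap.

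Atp7b, a copper transporter, fell by 3.59, Npas1, a bHLH-PAS factor, fell by 3.55, and Fam169a fell by 3.70. Plppr3, a phospholipid phosphatase-related membrane protein, changed by -3.23 and Kctd16, an auxiliary subunit of GABA-B receptors, by -3.17. H2-Q7, a nonclassical MHC class I gene, changed by -2.82 and belongs to a family of near-identical genes, so reads may be split among its members. Nos2, the inducible nitric oxide synthase, stood at 0.765, 2.82 and 5.33 CPM at day 3 and 0.175, 0.71, 0.152 and 0.0626 CPM at day 5, a change of -3.42. Its call was lost with the embryo as a block (adjusted p = 0.1 in edgeR) and without day 3 replicate 4 (adjusted p = 0.128).

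**Figure D2:**
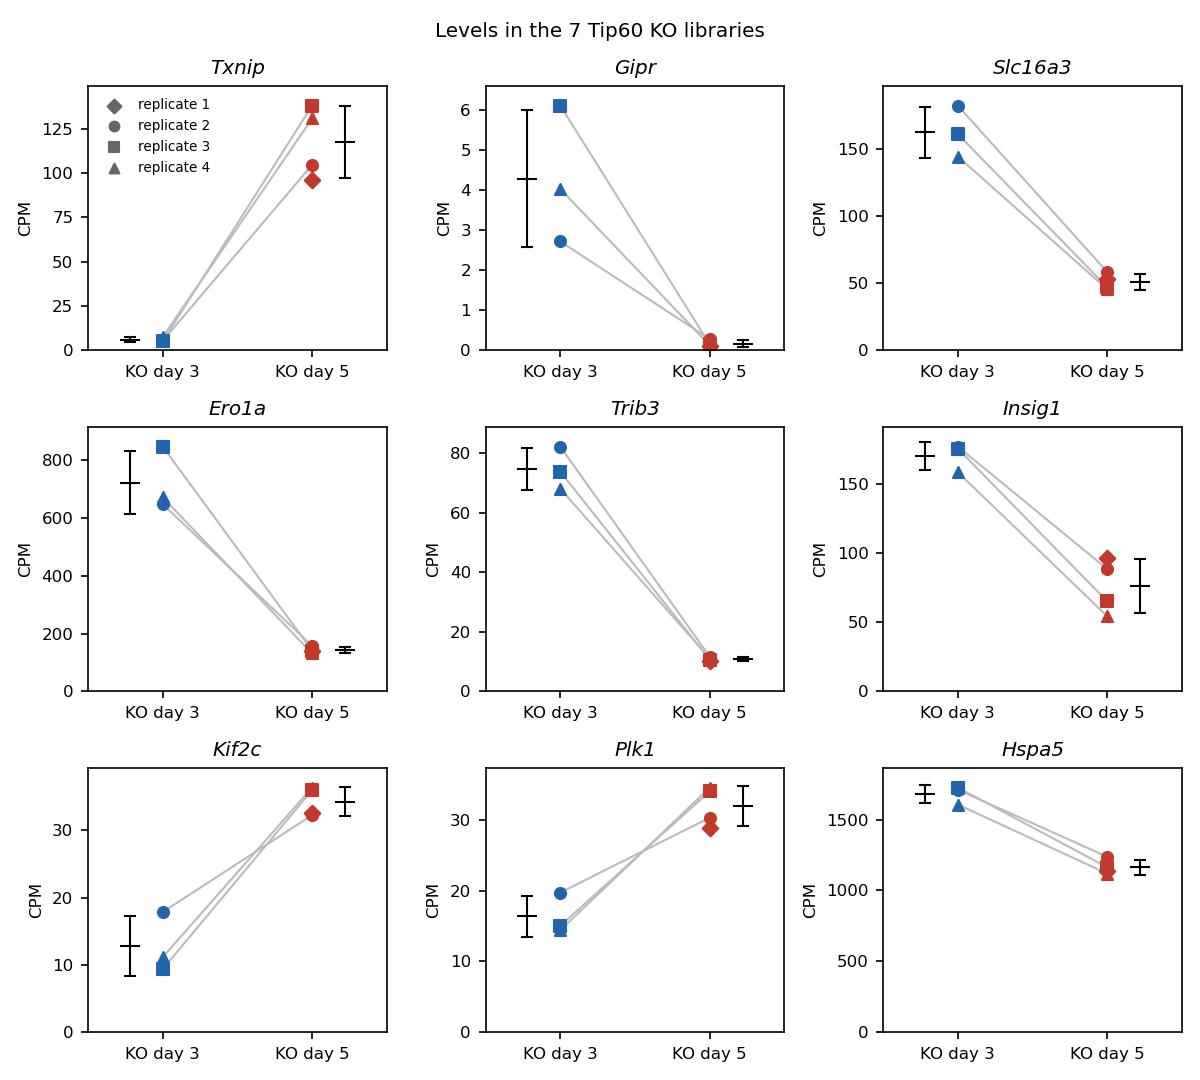
CPM (y axis, from 0) of 9 genes in the 7 KO libraries, with grey lines joining libraries of the same embryo, symbols marking replicates, and black bars giving the mean and SD of each day. Txnip, Kif2c and Plk1 are higher in every day 5 library and the other 6 genes are lower in every day 5 library than in any at day 3.

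Genes of glycolysis and the hypoxia response fell almost as a whole. Of 40 measured members 37 fell and none rose, beside 7.06% of all genes falling, and the list median was -1.26. Medians in the 3 paired embryos were -1.25, -1.28 and -1.24. The called genes of glucose entry, its splitting and lactate export all fell. Slc2a1, the main glucose transporter GLUT1, stood at 804, 695 and 551 CPM at day 3 and 165, 169, 157 and 151 CPM at day 5, a change of -2.09 ± 0.23. Hk1, a hexokinase that phosphorylates glucose, stood at 224, 201 and 200.4 CPM at day 3 and 87.5, 95.9, 80 and 78.2 CPM at day 5, a change of -1.29 ± 0.11 (edgeR adjusted p = 5e-06).

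Further down the pathway, Gpi1, which isomerises glucose-6-phosphate, stood at 424, 428 and 361 CPM at day 3 and 164, 172, 167 and 152 CPM at day 5, a change of -1.30. Pfkl, a phosphofructokinase subunit, changed by -1.32, Aldoa, an aldolase, by -1.06, and Tpi1, triosephosphate isomerase, by -1.22. Later in the pathway, phosphoglycerate mutase Pgam1 changed by -0.88, enolase Eno1 by -0.81 and pyruvate kinase Pkm by -0.77. Ldha, the muscle-type lactate dehydrogenase subunit, stood at 1466, 1230.5 and 1265 CPM at day 3 and 730.1, 778, 679.6 and 684 CPM at day 5. Slc16a3, the lactate exporter MCT4, stood at 182, 161 and 144 CPM at day 3 and 53.3, 58.3, 47 and 45.5 CPM at day 5, a change of -1.67 ± 0.15 (edgeR adjusted p = 1.34e-05). Pdk1, which turns off pyruvate entry to the citric acid cycle, changed by -1.62. Several glycolytic genes, Gapdh and Pgk1 among them, have near-identical copies elsewhere in the genome, and their low counts here are uncertain.

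Targets of HIF outside glycolysis fell alongside. Ero1a, the oxidase that passes electrons from new disulfide bonds to oxygen, stood at 649, 848 and 672 CPM at day 3 and 141, 158, 141 and 131 CPM at day 5, a change of -2.34 ± 0.15 (edgeR adjusted p = 7.09e-07). Vegfa, the angiogenic growth factor, stood at 373, 395 and 285 CPM at day 3 and 121, 141, 140.2 and 131 CPM at day 5, a change of -1.39. Bnip3, a mitophagy receptor, stood at 249, 298 and 239 CPM at day 3 and 68, 78.2, 57.5 and 57.8 CPM at day 5, and P4ha2, a collagen prolyl hydroxylase subunit, changed by -1.09. The members that did not pass were Pfkfb4 at 0.38 ± 0.18, Pfkm at -0.18 ± 0.09 and Eno2 at -0.17 ± 0.14, which encode a fructose-2,6-bisphosphate enzyme, the muscle phosphofructokinase and neuronal enolase. Pfkfb4 passed without day 3 replicate 2, at 0.69 (adjusted p = 0.0482 in edgeR).

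Because this list had the largest share of called genes, promoters of its members with the smallest adjusted p are shown, as RefSeq sequence of build GRCm38.p6, 250 bases before the first listed transcription start. Capitals mark the core of the hypoxia response element, ACGTG or GCGTG, on either strand. Ero1a lies at chr14:45318573-45318822 (minus strand) with 3 matches, Slc16a3 at chr11:120948817-120949066 (plus strand) with 2, P4ha2 at chr11:54100674-54100923 (plus strand) with 3 and Hk1 at chr10:62379909-62380158 (minus strand) with none; the windows of Gpi1 and Vegfa also held none.
Ero1a: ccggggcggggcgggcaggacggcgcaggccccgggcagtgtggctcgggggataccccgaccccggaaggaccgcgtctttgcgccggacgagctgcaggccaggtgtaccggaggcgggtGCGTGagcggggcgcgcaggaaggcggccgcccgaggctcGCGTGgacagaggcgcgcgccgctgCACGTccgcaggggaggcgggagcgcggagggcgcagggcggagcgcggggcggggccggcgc
Slc16a3: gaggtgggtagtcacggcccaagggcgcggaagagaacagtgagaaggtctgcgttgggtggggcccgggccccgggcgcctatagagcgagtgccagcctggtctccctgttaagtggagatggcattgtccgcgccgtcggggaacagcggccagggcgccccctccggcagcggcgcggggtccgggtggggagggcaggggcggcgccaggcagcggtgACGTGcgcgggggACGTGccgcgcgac
P4ha2: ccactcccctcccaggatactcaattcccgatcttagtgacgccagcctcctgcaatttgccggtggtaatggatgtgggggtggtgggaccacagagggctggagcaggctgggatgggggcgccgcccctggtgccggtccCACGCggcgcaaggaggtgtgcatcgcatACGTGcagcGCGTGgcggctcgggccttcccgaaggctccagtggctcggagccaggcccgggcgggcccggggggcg
Hk1: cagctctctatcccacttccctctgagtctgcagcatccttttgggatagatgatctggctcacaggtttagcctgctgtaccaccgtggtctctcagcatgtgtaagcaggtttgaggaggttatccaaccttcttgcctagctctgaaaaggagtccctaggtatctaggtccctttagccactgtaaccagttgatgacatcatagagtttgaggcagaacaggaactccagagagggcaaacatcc
Of the 37 genes that fell, 34 have a promoter in the table, and 26 of those (76.5%) held the core, beside 56.2% of the 10994 tested genes with a promoter and 38.6% of all 27025. A match is a description of letters in this window and not a measured binding site.

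Amino acid stress genes, the ATF4 targets, fell too. Of 30 measured members 24 fell (80%, beside 7.06% of all genes) and none rose. The median was -0.80, with paired embryo medians of -1.06, -0.67 and -0.63. Atf4 itself, the transcription factor of the integrated stress response, stood at 385, 370.1 and 334 CPM at day 3 and 202, 193, 210.4 and 216 CPM at day 5, a change of -0.82 ± 0.11 (edgeR adjusted p = 0.000293). Trib3, a pseudokinase that feeds back on ATF4, stood at 82.1, 73.7 and 68 CPM at day 3 and 10.4, 11.6, 10.6 and 11.1 CPM at day 5, a change of -2.78 ± 0.21 (edgeR adjusted p = 5.47e-06). Ddit3, the stress factor CHOP, stood at 61.4, 73.3 and 66.8 CPM at day 3 and 21.6, 22.1, 26.4 and 24 CPM at day 5, a change of -1.50. The smallest adjusted p of the list, 7.86e-09 in edgeR, was that of Aldh1l2, a mitochondrial folate enzyme, at 87.7, 86.9 and 84.6 CPM at day 3 and 18.4, 21, 19.4 and 21.2 CPM at day 5.

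Amino acid synthesis and glutathione turnover are both in this list. Asns, asparagine synthetase, stood at 170.4, 125 and 119 CPM at day 3 and 87.3, 82.4, 94.2 and 89.2 CPM at day 5, a change of -0.66, and Psat1, of serine synthesis, changed by -0.66. Chac1, which degrades glutathione, stood at 25.7, 19.7 and 25.1 CPM at day 3 and 8.88, 9.02, 10.3 and 9.9 CPM at day 5, a change of -1.34. Vldlr, a lipoprotein receptor, changed by -1.46. Aminoacyl-tRNA synthetases, which charge tRNAs and include ATF4 targets, gave 8 falls among 20 measured (40%, beside 7.06% of all genes) and no rise. The falls were led by Sars at -0.89 and Eprs at -0.75. Without day 3 replicate 2, 5 of the 20 fell, and with the embryo as a block in the KO libraries alone, also 5.

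Promoters of Chac1 (chr2:119350992-119351241, plus strand) and Asns (chr6:7693210-7693459, minus strand) are shown because each holds 1 match to the C/EBP-ATF response element, TGATGNAA on either strand, in capitals.
Chac1: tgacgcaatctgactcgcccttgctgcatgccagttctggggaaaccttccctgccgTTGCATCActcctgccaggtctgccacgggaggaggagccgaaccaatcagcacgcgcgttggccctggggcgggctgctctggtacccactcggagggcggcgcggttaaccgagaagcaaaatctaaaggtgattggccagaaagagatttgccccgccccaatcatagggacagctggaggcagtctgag
Asns: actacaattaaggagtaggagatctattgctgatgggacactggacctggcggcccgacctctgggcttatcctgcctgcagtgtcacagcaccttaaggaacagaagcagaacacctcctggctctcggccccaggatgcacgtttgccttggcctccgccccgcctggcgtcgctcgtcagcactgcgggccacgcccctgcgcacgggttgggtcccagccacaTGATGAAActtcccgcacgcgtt
Of the 24 genes that fell, 20 have a promoter in the table and 5 of them (25%) held the letters, beside 2% of tested genes and 3.5% of all genes. This motif was searched after the change of the list had been seen.

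Sterol synthesis genes moved down together. Of 25 measured members 20 fell (80%, beside 7.06% of all genes) and none rose, and the median was -0.79. Insig1, which holds SREBP in the endoplasmic reticulum, stood at 177, 176 and 159 CPM at day 3 and 96.6, 88.5, 65.1 and 54.3 CPM at day 5, a change of -1.16 ± 0.21 (edgeR adjusted p = 0.00354). Sqle, squalene epoxidase, changed by -0.65 and Mvd, mevalonate diphosphate decarboxylase, by -1.20. At day 5, replicates 3 and 4, both of litter 153, had the lower values of Insig1, Sqle and Mvd. The count of falls was 10 without day 3 replicate 2, 13 without day 3 replicate 3, 11 without day 5 replicate 3 and 12 without day 5 replicate 4. Lysosome and autophagy genes gave 10 falls among 41 (24.4%, beside 7.06% of all genes), led by Gaa, the lysosomal glucosidase, at -0.56. Without day 3 replicate 3 or day 5 replicate 3 there were 4 falls. Without day 5 replicate 4 there were 5, and without day 3 replicate 4 there were 6.

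Cell division genes rose. Of 73 measured genes of mitosis 61 rose and none fell, beside 4.98% of all genes rising, and all 73 estimates were above 0. The list median was 0.79, with paired embryo medians of 0.50, 0.84 and 1.20. In 71 of the 73 genes no day 3 library overlapped any day 5 library, beside 26.9% of all genes. Kif2c, a kinesin that depolymerises microtubules at kinetochores, stood at 17.9, 9.39 and 11.2 CPM at day 3 and 32.5, 32.2, 36 and 36.3 CPM at day 5, a change of 1.30 ± 0.17 (edgeR adjusted p = 0.000286). Plk1, a mitotic kinase, stood at 19.7, 15 and 14.4 CPM at day 3 and 28.8, 30.3, 34 and 34.5 CPM at day 5, a change of 0.92 ± 0.14. Ckap2, a spindle protein, stood at 35.5, 36.6 and 28.7 CPM at day 3 and 72.8, 73.2, 66.1 and 68.7 CPM at day 5, and Cdk1, the kinase that starts mitosis, at 48.2, 30.1 and 29.1 CPM at day 3 and 65, 66.2, 74.6 and 74.7 CPM at day 5. Mad2l1, of the spindle checkpoint, changed by 0.81.

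At day 3 replicate 2 had the highest level of Kif2c, Plk1 and Cdk1, and the list sat at -0.156, -0.487 and -0.738 (median deviation from the mean of the 7 libraries, log2 CPM) in replicates 2, 3 and 4. Day 5 libraries ranged from 0.281 to 0.444. Without day 3 replicate 4, 29 of the 73 genes rose, and without day 3 replicate 3, 40 rose; the medians were then 0.64 and 0.77. In bulk RNA, more dividing cells and more RNA of these genes per cell cannot be told apart.

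Promoters of Kif2c (chr4:117178773-117179022, minus strand) and Ckap2 (chr8:22185820-22186069, minus strand), the 2 of the 5 rising mitosis genes with the smallest adjusted p, Mad2l1, Plk1 and Nusap1 being the others, that hold the cell cycle homology region letters TTTGAA on either strand, are shown with those letters in capitals.
Kif2c: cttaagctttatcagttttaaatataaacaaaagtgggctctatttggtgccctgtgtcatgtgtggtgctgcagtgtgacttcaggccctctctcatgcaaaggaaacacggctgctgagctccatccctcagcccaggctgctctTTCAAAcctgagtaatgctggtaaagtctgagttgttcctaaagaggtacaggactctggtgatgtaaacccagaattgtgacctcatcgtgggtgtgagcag
Ckap2: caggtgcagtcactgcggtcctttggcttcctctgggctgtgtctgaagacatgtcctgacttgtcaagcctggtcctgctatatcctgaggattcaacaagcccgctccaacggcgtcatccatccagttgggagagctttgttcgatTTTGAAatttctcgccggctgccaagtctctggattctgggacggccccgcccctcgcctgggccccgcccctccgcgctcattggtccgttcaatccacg
Of the 61 genes that rose, 52 have a promoter in the table. Among these 20 (38.5%) held TTTGAA, beside 10.4% of tested genes and 16.3% of all genes, and 37 (71.2%) held CCAAT on either strand, beside 36.6% and 34.5%. Both motifs were searched after the rise had been seen.

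DNA replication genes gave 26 rises among 52 (50%, beside 4.98% of all genes) and no fall, with a median of 0.55. Rrm2, the ribonucleotide reductase subunit, stood at 62.4, 51.7 and 37.2 CPM at day 3 and 119.6, 123, 123 and 129 CPM at day 5, a change of 1.29 ± 0.16 (edgeR adjusted p = 0.000199). Clspn, a replication checkpoint adaptor, changed by 0.97, Gins2, of the replicative helicase, by 0.91 and Prim1, a primase subunit, by 0.90. The count was 9 without day 3 replicate 4, 12 without day 3 replicate 3, 15 without day 5 replicate 3 and 13 without day 5 replicate 4. Homologous recombination and Fanconi genes gave 16 rises among 39 (41%, beside 4.98% of all genes). Rad51ap1, which promotes DNA strand pairing, changed by 1.13, and Fancb and Fanca, of the Fanconi core complex, both by 0.90. Without day 3 replicate 4, 7 of the 39 rose.

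Regulators of the G1/S step changed less. Of 24 members 9 rose and 1 fell (37.5% and 4.17%, beside 4.98% and 7.06% of all genes). Without day 3 replicate 4 the numbers were 4 and 0. Ccne1, cyclin E1, stood at 17.3, 20.7 and 16.9 CPM at day 3 and 25.2, 25.3, 24.6 and 26.9 CPM at day 5, a change of 0.52 ± 0.09 (edgeR adjusted p = 0.00168). Ccne2, cyclin E2, changed by 0.91, and Rbl1, the pocket protein p107, by 0.78. Cdk4 changed by -0.25 (edgeR adjusted p = 0.0315), a call lost with the embryo as a block (adjusted p = 0.0781) and without any 1 of the KO libraries other than day 3 replicate 3.

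Among the 7 measured CDK inhibitors, only Cdkn1c, the imprinted gene of p57, changed past the threshold. Cdkn1c stood at 112, 155 and 177 CPM at day 3 and 52.9, 44.6, 40.5 and 29.9 CPM at day 5, a change of -1.81 ± 0.26 (edgeR adjusted p = 0.000896). Cdkn1a, the p53 target p21, stood at 267, 282 and 310.2 CPM at day 3 and 273, 266, 279 and 271 CPM at day 5, a change of -0.07 ± 0.08. Cdkn1b (p27) changed by -0.30 ± 0.12, Cdkn2a (p16 and p19) by -0.27 ± 0.14 and Cdkn2b (p15) by 0.09 ± 0.09. Cdkn2c (p18) changed by 0.06 ± 0.16 and Cdkn2d (p19 of the INK4 group) by 0.13 ± 0.14. The sign for Cdkn2c turned without day 3 replicate 2 (-0.04) and without day 5 replicate 3 (-0.02), with neither value past the test.

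Of 38 measured p53 targets, Ckap2 rose as given above (2.63%, beside 4.98% of all genes) and Gadd45a and Sesn2 fell (5.26%, beside 7.06%), shares under those of all genes. Gadd45a, a growth arrest and repair gene that ATF4 also drives, stood at 39.5, 44.1 and 38.4 CPM at day 3 and 21.2, 17.5, 18.2 and 17.8 CPM at day 5, a change of -1.10 ± 0.09 (edgeR adjusted p = 5.47e-06), and Sesn2, a stress-induced inhibitor of mTORC1, changed by -0.51. Of 33 regulators of apoptosis only the hypoxia-induced Bnip3 changed, a fall (3.03%, beside 7.06% of all genes). No core histone or H2A.Z gene passed the test among 16 measured.

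**Figure D3:**
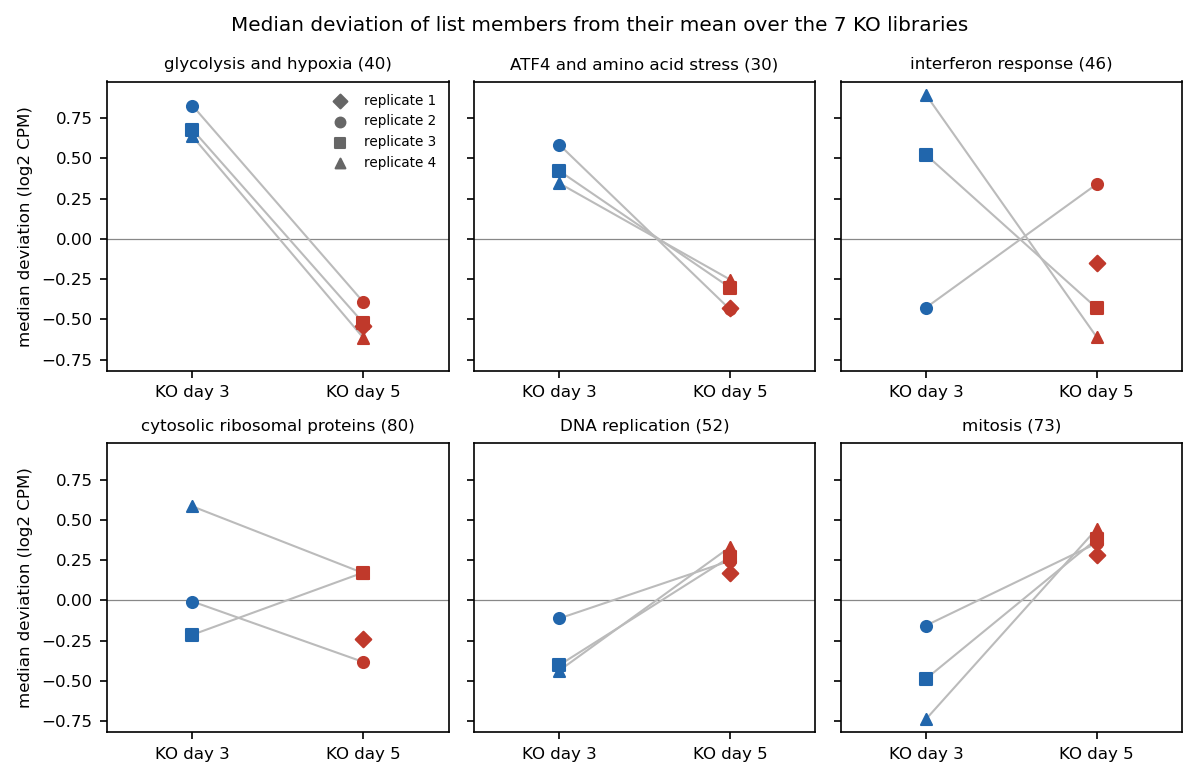
Median deviation of the members of 6 lists from their mean over the 7 KO libraries (log2 CPM, y axis), by day (x axis); grey lines join libraries of the same embryo and symbols mark replicates. In glycolysis, ATF4, mitosis and DNA replication every embryo moves the same way, while the interferon list rises in replicate 2 and falls in replicates 3 and 4.

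The interferon and ribosomal protein lists did not move alike in the embryos. Interferon response genes had a median of -0.54, with paired embryo medians of 0.75 in replicate 2, -0.96 in replicate 3 and -1.40 in replicate 4. At day 3 the list sat at -0.427, 0.523 and 0.896 in replicates 2, 3 and 4, and at day 5 at -0.149, 0.34, -0.429 and -0.609 in replicates 1 to 4. In none of the 46 members did the libraries of the days separate. By edgeR 1 gene rose and 1 fell (2.17% each, beside 4.98% and 7.06% of all genes). The rise was that of Cgas, the cytosolic DNA sensor, at 0.74 ± 0.23. The fall was that of Ifit2, an interferon-induced antiviral gene, at -0.79 ± 0.20. The Cgas call ended without any 1 of the KO libraries other than day 3 replicate 3 (adjusted p up to 0.22). Ifit2 lost its call without day 3 replicate 3 or 4 or day 5 replicate 1, 3 or 4 (adjusted p up to 0.152) and with the embryo as a block (adjusted p = 0.14). Without day 3 replicate 2 the list median was -0.98, with 4 falls.

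Cytosolic ribosomal protein genes had a median of -0.25, with 10 of 80 falling (12.5%, beside 7.06% of all genes). Their paired embryo medians were -0.34, 0.40 and -0.44. Rpl4 of the large subunit stood at 964, 919.6 and 1135 CPM at day 3 and 646, 625, 668 and 686 CPM at day 5, a change of -0.62 ± 0.09 (edgeR adjusted p = 0.000573). The median was 0.06 without day 3 replicate 4, with 1 rise and 5 falls, and without day 5 replicate 1, 2 or 4 there were 6 falls. Most genes of this family have processed copies that share reads. Ribosome biogenesis genes gave 2 rises (Nop56 and Gnl2) and 1 fall (Pes1) among 44, and nuclear genes of oxidative phosphorylation gave 2 falls among 65, both under the shares of all genes called.

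Matrix genes fell in part. Of 55 extracellular matrix genes 10 fell (18.2%, beside 7.06% of all genes) and none rose, with a median of -0.31. Col1a1, a chain of fibrillar type I collagen, stood at 13036, 13282 and 13068 CPM at day 3 and 6199, 8407, 7052 and 6798 CPM at day 5, a change of -0.88 ± 0.15 (edgeR adjusted p = 0.00135). Col1a2, its partner chain, stood at 7388, 8214 and 8291 CPM at day 3 and 4016, 5389.9, 4788 and 4638 CPM at day 5, a change of -0.76. Lamc1, a laminin chain of basement membranes, changed by -0.61, and Col12a1, a fibril-associated collagen, by -0.79. With the embryo as a block in all libraries 15 fell and 2 rose. Of 15 fibroblast markers, Col1a1 and Col1a2 were the 2 that fell, and all 15 were present at 1 CPM or more in some KO library; their summed level was 47681 to 58169 CPM at day 3 and 33296 to 38482 CPM at day 5.

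Marker lists of other cell types held some calls. Adipocyte markers gave 2 falls among 10, those of Adipor2 and Fabp4 (20%, beside 7.06% of all genes), or 1 without day 3 replicate 4. Muscle, endothelial and epithelial markers gave 1 fall each, among 12, 9 and 7 (8.33%, 11.1% and 14.3%). Endothelial falls numbered 2 without day 3 replicate 2 or day 5 replicate 4, epithelial falls 2 without day 3 replicate 2, and muscle falls 2 without day 5 replicate 2 or 3. Macrophage markers gave 2 rises among 14 (14.3%, beside 4.98% of all genes), those of Csf1r, the CSF1 receptor, and Lyz2, lysozyme. Csf1r stood at 10.5, 10.3 and 11.8 CPM at day 3 and 19.2, 13.6, 17 and 18.2 CPM at day 5. Lyz2 stood at 17.7, 20.2 and 33.3 CPM at day 3 and 66.4, 33.1, 40.7 and 42.8 CPM at day 5. The macrophage list summed to 80.8 to 114 CPM at day 3 and 99.4 to 170.5 CPM at day 5. The Csf1r call ended without any 1 KO library other than day 5 replicate 2 (adjusted p up to 0.0911 in edgeR), and that of Lyz2 without day 3 replicate 2 or 3 or day 5 replicate 1, 3 or 4 (adjusted p up to 0.153). Csf1, the ligand of that receptor, rose, at 402, 435 and 459 CPM at day 3 and 608, 705, 749.6 and 773 CPM at day 5, a change of 0.71 ± 0.11 (edgeR adjusted p = 0.00065). Summed endothelial markers were 54 to 72.1 CPM at day 3 and 35.4 to 53.6 CPM at day 5, with Sox17 and Robo4 at 0 counts in all KO libraries, and epithelial markers 51.1 to 91.7 and 37.5 to 51.9 CPM. Muscle markers summed to 259 to 457 and 199 to 299 CPM with Ckm at 0, neural and glial markers to 383 to 493 and 468 to 563 CPM with Olig2 at 0, and adipocyte markers to 249 to 273 and 172 to 196 CPM with Cidec and Lep at 0. Cartilage and bone markers, at 3880 to 4801 and 2888 to 5300.4 CPM, held no call among 19 tested. Hemoglobin and liver markers summed to 6.38 to 9.46 and 6.58 to 11.2 CPM. The part of these cell types in the changes above was not tested.

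TGF-beta and BMP genes gave 7 rises among 44 (15.9%, beside 4.98% of all genes). Their 4 falls (9.09%) were near the 7.06% of all genes. Id1 and Id4, inhibitors of bHLH factors and direct BMP targets, stood at 50.8, 51.2 and 40.9 CPM at day 3 and 92.8, 80.1, 102 and 105 CPM at day 5 and at 25.8, 18.3 and 18.9 CPM at day 3 and 42.4, 34.5, 34.6 and 35.2 CPM at day 5, changes of 1.01 and 0.76. Id3 of the same family changed by 0.85, a call that ended without day 3 replicate 4 (adjusted p = 0.0502 in edgeR). Fst, follistatin, an antagonist of activin, rose by 0.60, and Ltbp4, which holds latent TGF-beta in the matrix, changed by -0.70. The split was 4 and 1 without day 3 replicate 4, 7 and 2 without day 5 replicate 2, and 5 and 2 without day 5 replicate 3. Wnt genes gave 1 fall, that of Lrp5, among 44 (2.27%, beside 7.06% of all genes). With the embryo as a block they gave 5 rises and 1 fall.

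Clock genes gave 1 rise and 7 falls among 19 (5.26% and 36.8%, beside 4.98% and 7.06% of all genes). Ciart, a repressor of the clock, stood at 6.25, 3.76 and 3.42 CPM at day 3 and 1.15, 1.85, 1.32 and 1.32 CPM at day 5, Rora, an activator, at 9.73, 19.3 and 17 CPM at day 3 and 5, 5.97, 5.99 and 4.82 CPM at day 5, and Bhlhe40, a clock repressor that hypoxia induces, at 178, 157 and 134 CPM at day 3 and 64.6, 73.9, 65.1 and 54.3 CPM at day 5, with changes of -1.79, -1.41 and -1.28. Nr1d1, the repressor REV-ERB alpha, rose by 0.51. The labels give no hour of harvest, so hour and day cannot be told apart.

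Secreted factors of inflammation and senescence gave 2 rises and 4 falls among 48. These shares of 4.17% and 8.33% were near the 4.98% and 7.06% of all genes. Without day 3 replicate 2 the list gave 3 rises and 9 falls. Beside Csf1, Il11, a cytokine of the IL-6 family, rose at 11, 6.58 and 4.73 CPM at day 3 and 14.3, 9.94, 23.8 and 21.5 CPM at day 5; its call was lost with the embryo as a block (adjusted p = 0.213) and without day 3 replicate 3 or 4 or day 5 replicate 3 or 4 (adjusted p up to 0.13). Mmp14, a membrane collagenase, changed by -0.54, and Igfbp5, an IGF binding protein, by -0.76, the latter call ending without day 3 replicate 4 (adjusted p = 0.081). Immediate early genes gave 5 falls among 34 (14.7%, beside 7.06% of all genes), with Ier3 at -0.97 and Atf3 at -0.96. There were 2 or 3 falls without day 3 replicate 2, 3 or 4 or day 5 replicate 2 or 3. Complement genes gave 1 rise, that of Cfp, among 21 (4.76%, beside 4.98% of all genes).

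NRF2 targets gave 3 rises and 3 falls among 24 (12.5% each, beside 4.98% and 7.06% of all genes). Hmox1, heme oxygenase, stood at 128, 152 and 159 CPM at day 3 and 64.7, 64.4, 66.6 and 60.2 CPM at day 5, a change of -1.19 ± 0.09 (edgeR adjusted p = 3.79e-06). Tkt, transketolase, changed by -0.55 and Abcc1, a glutathione conjugate exporter, by -0.45. Gclc, Nqo1 and Prdx1, of glutathione synthesis, quinone reduction and peroxide removal, rose by 0.25, 0.49 and 0.24. With the embryo as a block none of the 3 rises passed (adjusted p = 0.159, 0.0742 and 0.138 in edgeR), and leaving out day 3 replicate 4 or day 5 replicate 1, 3 or 4 gave no rises.

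Much of the change with days was also found in controls, which share no library or embryo with the KO cells. Across the 14327 genes the KO and control changes had a Pearson r of 0.411 and a Spearman rho of 0.376, a description in which genes are not independent. Of the 713 genes that rose in KO cells 403 also rose in controls and 34 fell there, and of the 1012 that fell 693 also fell in controls and 44 rose. Over all 14327 tested genes 2625 rose and 2856 fell in controls. In controls 5481 genes passed the test, beside 1725 in KO cells. These 2 counts are not like for like. Control libraries repeat embryos 218-e1 and 218-e6 and come from litter 218 apart from day 5 replicate 4. KO libraries come from litters 136, 153 and 159. The control count was not taken with the embryo as a block. The change differed between the genotypes for 1026 genes that were more positive in KO cells (7.16%) and 1025 that were more negative (7.15%), or 657 and 618 without control day 3 replicate 3 and 733 and 681 without control day 3 replicate 2. Of the 1725 genes called in KO cells 449 were among these: 49 changed in the same direction by more than in controls, 191 in the same direction by less, and 209 had the opposite sign of the control estimate.

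**Figure D4:**
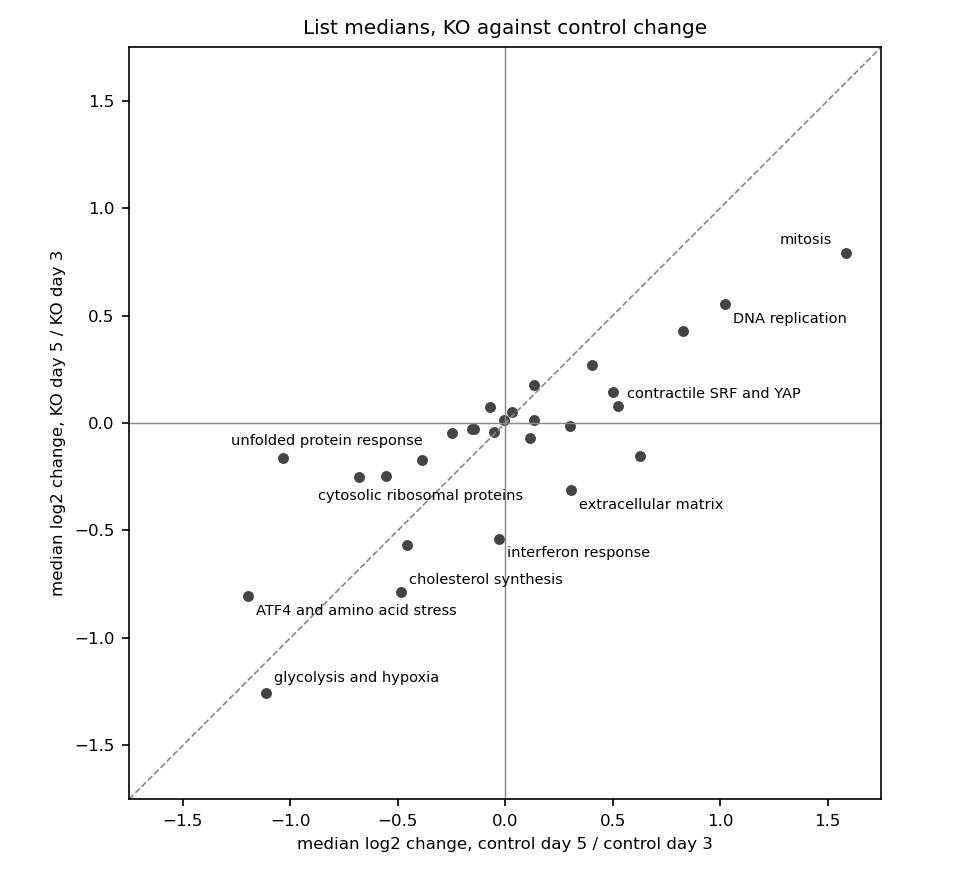
Median log2 fold change of day 5 over day 3 of 28 pathway lists in control cells (x axis) and KO cells (y axis), with a dashed line where the medians are equal. Glycolysis genes lie near the line, mitosis and DNA replication genes lie under it at positive values, and the unfolded protein response lies above it at negative values.

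The glycolysis and hypoxia list fell in both genotypes. In controls 35 of 40 members fell, beside 2856 of all 14327 tested genes, with a median of -1.11. Between genotypes 2 members differed in the positive and 3 in the negative direction, near the 7.16% and 7.15% of all genes. Without control day 5 replicate 4 the numbers were 3 and 12, beside 1331 and 1414 of all genes. Slc16a3 fell further in KO cells (difference -0.93 ± 0.21, edgeR adjusted p = 0.0111), and Ero1a fell further in controls (difference 0.96 ± 0.21, adjusted p = 0.00826). Cholesterol genes gave 13 falls in controls, or 8 without control day 3 replicate 2, and for none of the 25 did the difference pass, or for 3 without control day 5 replicate 4. For ATF4 targets 28 of 30 fell in controls, with a median of -1.20. Among the 30 targets 11 differed, all more positive in KO cells, beside 7.16% of all genes. Without control day 5 replicate 4 the numbers were 11 more positive and 3 more negative. Ddit3 differed by 1.40 ± 0.16 (edgeR adjusted p = 0.000115), Atf3 by 2.28 ± 0.27 and Gadd45a by 1.62 ± 0.13.

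A list that separated the genotypes was the unfolded protein response of the endoplasmic reticulum. Summed levels of its 29 members were 29970 to 30795 CPM at day 3 and 11817 to 13705 CPM at day 5 in controls. KO cells had sums of 11195 to 11908.5 CPM at day 3 and 8840 to 9627 CPM at day 5. In controls 27 of 29 members fell, beside 2856 of all 14327 genes, with a median of -1.04. In KO cells 5 fell (17.2%, beside 7.06% of all genes), with a median of -0.16. For 26 of 29 the difference passed in the positive direction, beside 7.16% of all genes. Hspa5, the chaperone BiP, stood at 1710.2, 1725 and 1606 CPM at day 3 and 1136, 1237, 1163 and 1119 CPM at day 5, a change of -0.53 ± 0.11 (edgeR adjusted p = 0.00594), where controls changed by -2.19; the difference was 1.66 ± 0.16 (edgeR adjusted p = 3.98e-05). Herpud1, of endoplasmic reticulum degradation, changed by -0.68 in KO cells and -1.85 in controls, a difference of 1.18 ± 0.17. P4hb, a protein disulfide isomerase, changed by -0.41 in KO cells and -0.44 in controls.

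Many cell division genes rose less in KO cells than in controls. In controls 72 of 73 mitosis genes rose, beside 2625 of all 14327 genes, with a median of 1.59. For 34 the difference passed, all more negative in KO cells, beside 7.15% of all genes. The 34 became 11 without KO day 3 replicate 2, 16 and 13 without control day 3 replicate 2 and 3, and 57 without control day 5 replicate 4. Summed levels of the list at day 3 were 1806 to 2731 CPM in KO cells and 1404 to 1812 CPM in controls. At day 5 they were 3573 to 3956 CPM in KO cells. Control sums at day 5 were 4642 to 4740 CPM in replicates 1 to 3 and 3142 CPM in replicate 4. Plk1 differed by -1.38 ± 0.20 (edgeR adjusted p = 0.000631) and Mad2l1 by -0.74 ± 0.17. DNA replication genes rose in 43 of 52 cases in controls, with a median of 1.02. Of the 52 genes 10 differed, all more negative in KO cells, beside 7.15% of all genes. That number was 4 without KO day 3 replicate 2, 5 without control day 3 replicate 3 and 26 without control day 5 replicate 4. Rrm2 differed by -1.27 ± 0.22. Among G1/S genes 6 of 24 differed, all more negative, beside 7.15% of all genes (3 without KO day 3 replicate 2). Ccne1 differed by -0.96 ± 0.12 (edgeR adjusted p = 0.000299).

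Matrix and contractile genes changed differently between the genotypes. In controls 19 of 55 matrix genes rose and 7 fell, beside 2625 and 2856 of all 14327 genes. The share falling in controls was under that of all genes. In KO cells 0 rose and 10 fell, beside 713 and 1012 of all genes. Of the 55 genes 13 differed, all more negative in KO cells, beside 7.15% of all genes. Summed levels of the matrix genes in KO cells were 108920 to 128992 CPM at day 3 and 84412 to 96213 CPM at day 5. Those in controls were 64482 to 77292 CPM at day 3. At day 5 they were 75327 to 78472 CPM in control replicates 1 to 3 and 112925 CPM in replicate 4, the control male. Without that library 17 matrix genes rose and 10 fell in controls and 17 differed, and without control day 3 replicate 2 the rises numbered 10. Col1a1 changed by -0.88 in KO cells and 0.45 in controls (difference -1.34 ± 0.21, edgeR adjusted p = 0.00119), and Col1a2 differed by -1.07 ± 0.19. Contractile SRF and YAP targets gave 18 rises among 32 in controls. In KO cells they gave 1, that of Mrtfa (3.13%, beside 4.98% of all genes). Of the 32 targets 12 differed, all more negative, beside 7.15% of all genes. That number was 6 without KO day 3 replicate 2, 7 without control day 3 replicate 2 and 5 without control day 3 replicate 3. Fst differed by -2.25 ± 0.18 and Igfbp5 by -1.20 ± 0.26.

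Single differences are given for the 5 largest in each direction among genes whose difference passed, with a mean of at least 2 CPM and KO libraries of the days that did not overlap; genes outside these limits had larger estimates. Mylk, myosin light chain kinase, stood at 99.4, 94.9 and 106 CPM at day 3 and 54.4, 75.3, 87.6 and 72.5 CPM at day 5 in KO cells, a change of -0.47 ± 0.19 that did not pass (edgeR adjusted p = 0.133), where controls changed by 3.05; the difference was -3.52 ± 0.30 (edgeR adjusted p = 3.98e-05). Mrvi1, a smooth muscle partner of cGMP kinase, differed by -2.78 ± 0.43, Sorbs2, an actin adaptor, by -2.63 ± 0.59, Atoh8 by -2.56 ± 0.57 and the potassium channel Kcnj15 by -2.38 ± 0.43. In the positive direction Ttbk1, a tau kinase, differed by 2.94 ± 0.57, Lama1, a laminin chain, by 2.94 ± 0.32, the secreted carbonic anhydrase Car6 by 2.93 ± 0.50, the mitochondrial protein Chchd10 by 2.88 ± 0.60 and Galnt14, which starts O-glycans, by 2.62 ± 0.74. Car6 fell in KO cells, at 5.46, 7.04 and 5.94 CPM at day 3 and 0.28, 0.781, 1.62 and 1.06 CPM at day 5, and changed by -5.62 in controls. The Galnt14 difference ended with the embryo as a block (adjusted p = 0.0813 in edgeR) and without KO day 3 replicate 2 or 4, KO day 5 replicate 4, control day 3 replicate 1 or 3, or control day 5 replicate 2 (adjusted p up to 0.0751).

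Within KO cells, Ttbk1 rose by 1.16, and Lama1 and Kcnj15 changed by -0.69 and -1.24. The Ttbk1 call ended without day 3 replicate 2 or 4 or day 5 replicate 2 or 4 (adjusted p up to 0.107 in edgeR). That of Lama1 ended with the embryo as a block (adjusted p = 0.108) and without day 3 replicate 3 or 4 or day 5 replicate 1, 3 or 4 (adjusted p up to 0.255), and that of Kcnj15 with the block (adjusted p = 0.0852) and without day 3 replicate 4 (adjusted p = 0.0757). With the block, Chchd10 passed at -1.19 (adjusted p = 0.00973) and Sorbs2 at 0.43 (adjusted p = 0.0144).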

How the data were processed

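RNA of 14 libraries was measured, and the 7 KO libraries are described here. Reads were counted per gene by the authors with featureCounts on mm10, per the submitters' processing notes, and the deposited values are whole-number counts (aligner and strand setting: not given in the sources used here, so antisense partners may share counts although the kit is stranded). Gene_length was deposited beside the counts and not used. Of 27179 rows, 909 without an identifier (0.194% to 0.315% of counts) and 112 sex-linked genes were left out.

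Counts were scaled by TMM and tested with edgeR 4.0.16 (R 4.3.3; filterByExpr, glmQLFit robust, glmQLFTest; 4 group means over all libraries, Benjamini-Hochberg). List deviations use log2 CPM with a prior count of 2. The script was tested on simulated counts. Replicates share embryo labels between days, so the numbers pair the samples; deviations of paired libraries correlated at -0.0166, -0.0229 and 0.204. Replicate libraries differed by more than sampling noise (chi-square per degree of freedom 5.56 to 50.1). Where labels name 1 embryo for several libraries, p-values measure culture and handling spread.

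Members and 37 gene lists (1186 of 1189 genes matched) were chosen with earlier results of these data known. Genes named were Kat5, the 12 largest changes in each direction (called, at least 2 CPM, days separate), the 5 largest differences from control in each direction, up to 4 called members of a list with the smallest adjusted p, and all CDK inhibitors; others (steps of glycolysis, HIF, ATF4, SREBP, BMP and NRF2 members) were chosen after their values were seen. Alternatives were DESeq2 1.42.0, limma-voom 3.58.1, other scalings, filters, a fold threshold, sex, the embryo block and leaving out each library. Some members of the lists are not reported here by name. Promoters are RefSeq's, matched by gene identifier.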

Additional observations from a re-analysis of the deposited data

Results flagged for a closer look

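The day 5 KO values of 137 genes were screened for 1 library far from the other 3, which chance gives in about 1 of 20 groups, and 3 genes met the mark. Sorbs2 was 132 CPM in replicate 2 against 149 to 152 CPM in the others, Rad51ap1 16.5 CPM in replicate 4 against 13 to 13.6 CPM, and Id4 42.4 CPM in replicate 1 against 34.5 to 35.2 CPM.

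Of 2051 genes whose change over days differed between genotypes in edgeR's test of the difference (adjusted p under 0.05), 25 are given with that difference in the results above. The difference, KO minus control on the log2 scale, was positive for Ttbk1 (2.94), Lama1 (2.94), Car6 (2.93), Chchd10 (2.88), Galnt14 (2.62), Atf3 (2.28), Hspa5 (1.66), Gadd45a (1.62), Ddit3 (1.40), Herpud1 (1.18) and Ero1a (0.96). It was negative for Mylk (-3.52), Mrvi1 (-2.78), Sorbs2 (-2.63), Atoh8 (-2.56), Kcnj15 (-2.38), Fst (-2.25), Plk1 (-1.38), Col1a1 (-1.34), Rrm2 (-1.27), Igfbp5 (-1.20), Col1a2 (-1.07), Ccne1 (-0.96), Slc16a3 (-0.93) and Mad2l1 (-0.74). The genotypes come from different litters, and that part was not tested.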

How the results depend on the processing

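Against a 1.5-fold threshold (glmTreat), 16 genes rose and 122 fell in KO cells, and 93 and 74 differed from control in the positive and negative directions. At that threshold 2 mitosis genes, 1 replication and no recombination gene rose, and 23 glycolysis, 8 ATF4 and no cholesterol genes fell. Voom with sample weights gave 1599 negative differences, with 20 matrix and 8 unfolded protein response genes falling in KO cells. Upper-quartile scaling left 6 ribosomal protein and 3 immediate early genes falling. Leaving out 1 library gave 300 to 1137 genes higher, 710 to 1412 lower, 657 to 1331 more positive and 618 to 1414 more negative; for changes within KO cells, and for list counts in controls and between genotypes, the fits without 1 control library were added after seeing the data, as were list counts between genotypes without 1 KO library. With the replicate block of embryo 753 rose and 1024 fell, and 696 and 865 differed; in KO libraries alone the block gave 575 and 875. Beside the calls given with the results, those named as changed by the block, it changed no other call of a named gene in the fit to all libraries. DESeq2 gave 726 and 1261, RLE scaling 639 and 1123, upper-quartile scaling 912 and 878, no filter 550 and 923, and sex as a covariate 914 and 1172. No called gene changed sign in any setting. Cdkn2c, not called, ranged from -0.0433 to 0.158 when 1 KO library was left out, and was -0.0205 without KO day 5 replicate 3. Where an alternative changed a count, the cause was not tested. The shallowest library, with 2187168 counts, limits genes of a few CPM most.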

Other observations

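Glycogen genes, a list assembled after the changes had been seen, fell in part from day 3 to day 5 in KO cells. Of 16 genes tested 8 fell and none rose, with a median of -0.52, beside 7.06% of all genes falling. Since the list was chosen on these values, that share describes the list and is no test. Gys1, the glycogen synthase of muscle and fibroblasts, stood at 146, 151 and 121 CPM at day 3 and 43, 49.8, 39 and 38.2 CPM at day 5, a change of -1.71 ± 0.16 (edgeR adjusted p = 2e-05). Gbe1, the branching enzyme, stood at 58.6, 69.5 and 61.6 CPM at day 3 and 25.2, 23.7, 21.4 and 24.4 CPM at day 5, a change of -1.40, and Pgm1, which links glucose-1-phosphate to glycolysis, at 217, 217 and 190.2 CPM at day 3 and 66.8, 85.8, 61.9 and 61.7 CPM at day 5, a change of -1.59. For each of these 3 genes every day 5 library lay under every day 3 library. Pygl, a phosphorylase of glycogen breakdown, fell as well, with a change of -1.33. Ppp1r3b and Ppp1r3c, which bring protein phosphatase to glycogen, changed by -1.84 and -1.68, and Stbd1, a glycogen-binding protein, by -0.99. In controls Gys1, Gbe1, Pgm1, Pygl, Ppp1r3b and Stbd1 also fell, with changes of -0.91, -1.68, -1.12, -0.89, -1.12 and -1.70. Ppp1r3c changed there by 0.31, which did not pass.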
